A study of Danio rerio with 4 samples.

Results

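The genes of the Notch system were followed through single cells of the dissected zebrafish calvaria, the skull roof. They comprised every symbol in the count tables that begins with *notch*, *jag*, *hey* or *her* and continues with a digit or, outside the *her* genes, the letter a or b, together with *dla*, *dlb*, *dlc*, *dld* and *dll4*. This rule found 32 of the 39988 genes listed, namely 9 ligands, 4 receptors, 17 *her* genes and 2 *hey* genes. The cells came from 4 droplet libraries of fish of the tubingen strain. Juvenile replicate 1 was made from 20 fish of 9 to 11 mm with *cdh1:mlanYFP*-positive cells sorted away, and juvenile replicate 2 from 20 fish of that length with *sp7:GFP*-positive cells sorted away. Adult replicate 1 was made from 10 fish of 22 to 25 mm without *cdh1:mlanYFP*-positive cells, and adult replicate 2 from 10 fish of that length with no reporter gate. Epithelial cells carry the *cdh1* reporter, named ecad:YFP in the labels, and osteoblasts the *sp7* reporter. DAPI-positive, dying cells were removed from every library. The fish of a library were pooled, so a library is the replicate. The p-values of stage tests measure the spread between 2 libraries per stage. Those of tests between gates measure how far differences between gates vary over the libraries of both stages. The replicate numbers follow the order of the records and pair nothing.

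In Notch signalling a Delta or Jagged ligand on one cell binds a Notch receptor on its neighbour, the receptor is cut, and its inner part enters the nucleus and switches on target genes. Among these targets are *her* and *hey* genes, which encode transcriptional repressors. The pathway is known for holding neural progenitors and radial glia back from becoming neurons, for patterning arteries and their mural cells (the smooth muscle cells and pericytes of the vessel wall), and for restraining the maturation of osteoblasts.

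Cells were assigned by marker genes that include none of the 32. A cell entered a gate when at least 3 of the 10 markers of 1 list had a UMI, the tag of 1 captured RNA molecule, and this was at least 2 more than for any of the other 13 lists. Of 21311 cells kept, 6469 entered the 6 gates described here, 2139 of these lay near the limits of the gate, and 8569 cells (40.2%) entered no gate. The libraries held 6986539 to 24854689 UMIs and 2072 to 8313 kept cells, with median depths of 1878 to 2815 UMIs per cell, and pairs of libraries shared 14 to 104 cell barcodes. In the order juvenile replicate 1, juvenile replicate 2, adult replicate 1 and adult replicate 2, which is kept throughout, the neural gate held 1462, 2468, 26 and 13 cells and the radial glia gate 213, 164, 55 and 52. The endothelial gate held 37, 13, 26 and 21 cells, the mural gate 8, 16, 53 and 142, the mesenchyme gate 281, 221, 258 and 686, and the osteoblast gate 62, 1, 55 and 136. Near the limits lay 18, 9, 7 and 7 of the endothelial, 5, 4, 34 and 62 of the mural, and 150, 131, 146 and 373 of the mesenchyme cells. Adult mural cells carried a median of 6 mural markers in each replicate. In adult replicate 1 these cells also carried medians of 3 markers of the radial glia, mesenchyme and dermal fibroblast lists. In adult replicate 2 those medians were 2. Sums of fewer than 10 cells were not tested, so mural cells of juvenile replicate 1 and the osteoblast of juvenile replicate 2, the library sorted against *sp7:GFP*, were left out.

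One gate went against its label. In the radial glia gate of adult replicate 2, *fabp7a* was seen in 13.5% of cells, *gfap* and *slc1a2b* in 1.92% each, and *s100b* and *slc1a3b* in none of 52 cells, which allows a share of cells with a UMI of up to 5.77% at a median depth of 1322 UMIs. Of these 52 cells 49 lay near the limits of the gate. In the same gate of juvenile replicate 1 *fabp7a* reached 92.5% and *slc1a2b* 56.3%. The cells of adult replicate 2 entered the gate mainly through *glula*, *ptgdsb.1* and *ptgdsb.2*, which were seen in 43.6% to 60.3% of all kept cells of that library. At least 2 of 6 core markers were present in 135, 131, 35 and 1 of the gated cells. Counts of genes that passed in radial glia are therefore also given without adult replicate 2, while the fold changes printed include it.

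Levels are in CPM, the UMIs of a gene per 1000000 UMIs of the same cells, with exact 95% Poisson intervals where few UMIs were counted. These intervals cover counting error only. Free RNA released by broken cells also enters droplets, and its level was read from immune cells. For the *her4* genes and *her15.1* that level depended on the stage. *her15.1* stood at 82.9 and 68.8 CPM in immune cells of the juvenile replicates and at 1.16 and 0 CPM in those of the adult replicates. Adult replicate 2 held only 36 immune cells, where 0 UMIs allow up to 32.9 CPM. In juvenile red blood cells of replicate 1 *her15.1* stood at 73.0 CPM and in juvenile chondrocytes at 52.8 and 68.5 CPM. Immune cells were no such reference for *her9* (209 to 592 CPM) or *notch2* (29.8 to 61.6 CPM), which were as high there as in several gates.

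Of the 32 genes, 21 had enough UMIs to be tested between gates with edgeR's quasi-likelihood test with the library as a block, among 6646 genes in all. A gene could pass the filter on low counts through the gate where it was high, as *jag2a* did in endothelial cells and *her8a* in radial glia. In radial glia 14 were higher and 0 lower than the mean of the other 5 gates at an adjusted p under 0.05, where 13.1% of all genes were higher and 1.41% lower, and the median log2 fold change of the 21 was 2.48 against 0.25 over all genes. In endothelial cells 8 were higher and 1 lower (7.67% of all genes higher, 5.42% lower), with a median of 1.17 against -0.38. In neural cells 5 were higher and 5 lower (31.4% of all genes higher, 18.3% lower), with a median of 0.46 against 0.39, both shares being near those of all genes. In mesenchyme 3 were higher and 1 lower (17.2% of all genes higher, 1.23% lower) and the median was -0.56 against 0.16. In mural cells 1 was higher and 0 lower (6.23% of all genes higher, 1.1% lower) with a median of -1.03 against -0.07, and in osteoblasts 0 were higher and 2 lower (10.4% of all genes higher, 5.03% lower) with a median of -1.01 against -0.21. At least 1 gate held 0 UMIs for 8 of the 21 genes, *dla*, *her2*, *her8a*, *her12*, *jag2a*, *jag2b*, *notch1a* and *notch1b*, and the size of their fitted fold changes over the other gates depends on the fit. For these 8 genes the fitted values were then replaced by ratios of counts pooled over libraries, with gates under 3 counts set at 3. The medians were 2.29 in radial glia, 1.17 in endothelial cells, 0.44 in neural cells, -1.85 in mesenchyme, -0.41 in mural cells and -1.77 in osteoblasts. In CPM the limit of 3 counts is higher in gates with fewer UMIs, so these medians are no measure of size. The neural count of 10 was 6 without juvenile replicate 1 and 4 without juvenile replicate 2. The mesenchyme count was 1 without juvenile replicate 1, and the mural count was 2 without juvenile replicate 2. The osteoblast count was 1 without juvenile replicate 1, juvenile replicate 2 or adult replicate 2. The map of levels shows these differences library by library.

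**Figure D1:**
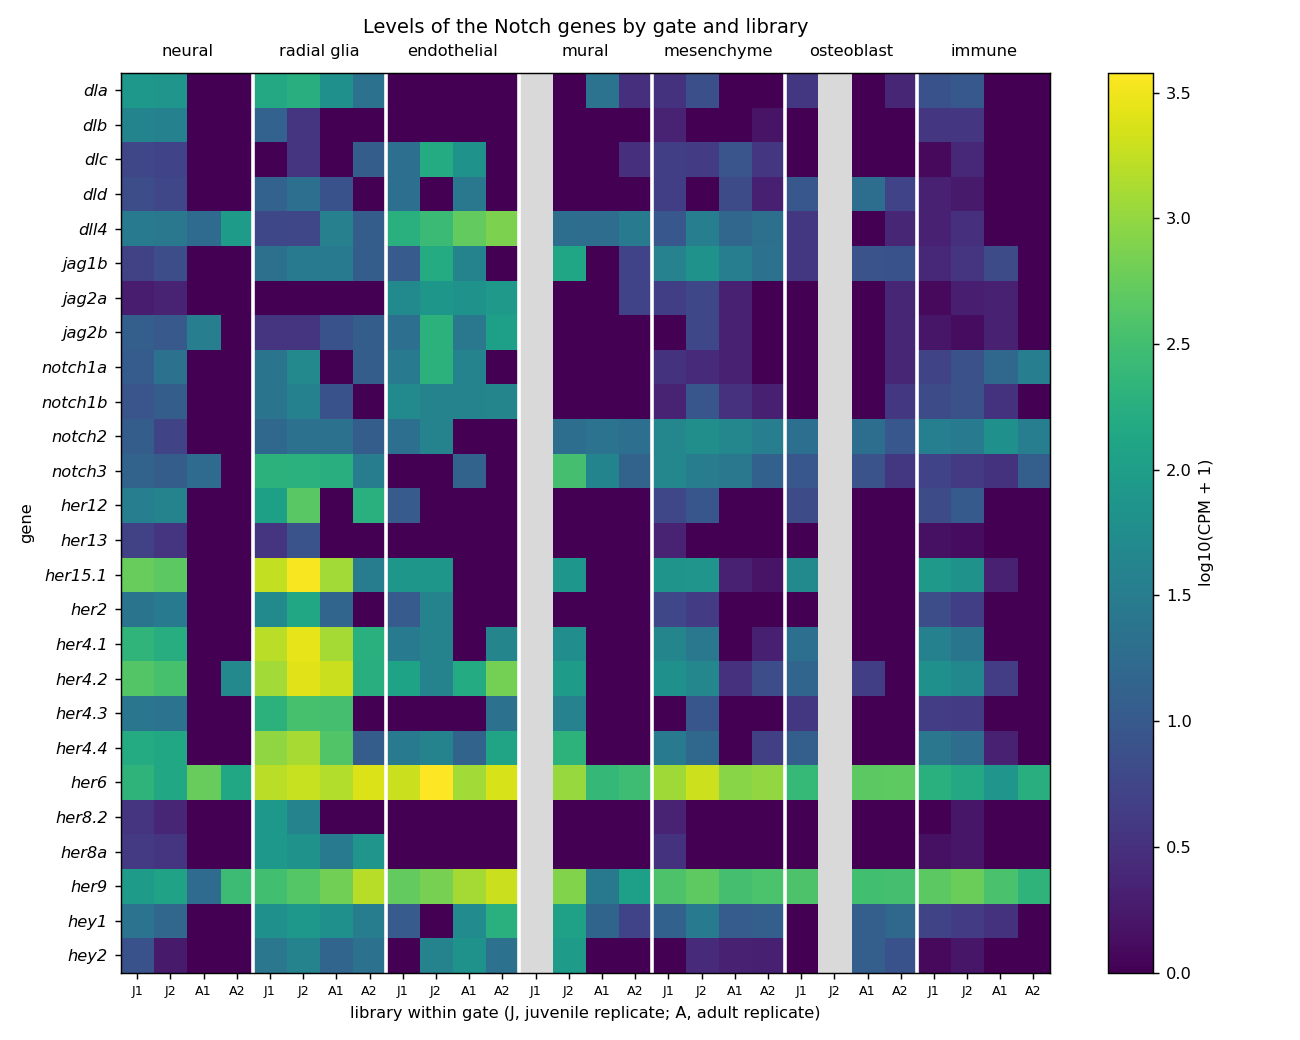
Level of each of the 26 genes with at least 20 UMIs in the 6 gates, as log10(CPM + 1), with 1 row per gene and 1 column per library within each gate and in immune cells; grey columns had fewer than 10 cells. The *her4* genes and *her15.1* are brightest in the first 3 radial glia columns, *dll4* in the endothelial columns, and *her6* and *her9* are bright in most columns.

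Among the ligands, *dla*, a Delta ligand of newborn neurons and progenitors, was highest in radial glia, at 145, 173, 62.4 and 20.5 CPM. In neural cells it stood at 79.6 and 71.7 CPM in the juvenile replicates and at 0 in the adult replicates, whose 81795 UMIs allow up to 36.7 CPM. Radial glia stood above neural cells of the same library in the first 3 libraries, and in adult replicate 2 the order could not be seen, since 0 UMIs in its neural cells allow up to 140.1 CPM. The log2 fold change of radial glia over the mean of the other gates was 4.53 (SE 0.55, adjusted p 7.72e-08) and over neural cells 1.45 (SE 0.48, adjusted p 0.0167). Neural cells also lay above the mean of the other gates, by 2.78 on the log2 scale (SE 0.66, adjusted p 0.000636), but not without juvenile replicate 1 (adjusted p 0.0911).

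*dlb*, a second Delta gene of neurons, stood at 40.7 and 36.9 CPM in juvenile neural cells and at 12.5 and 2.40 CPM in juvenile radial glia, against 2.65 and 2.66 CPM in juvenile immune cells. It was thus ordered the other way from *dla* in both juvenile replicates. It did not pass the filter on low counts and was not tested. *dlc* was seen in endothelial cells at 19.4, 156, 64.8 and 0 CPM from 11 UMIs in all, and *dld* had 77 UMIs over the 6 gates, spread over 5 of them with at most 25.9 CPM.

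*dll4*, the Delta ligand of sprouting and arterial endothelium, was the ligand with the highest level in any gate. It stood at 185, 273, 518 and 740 CPM in endothelial cells, from 19, 7, 40 and 36 UMIs. Every endothelial value lay above every value of the other 5 gates, the highest of which, 93.4 CPM in adult neural cells, came from 2 UMIs. Its log2 fold change over the other gates was 4.63 (SE 0.36, adjusted p 6.80e-13). In osteoblasts it was at 2.77, 0 and 1.40 CPM in the 3 libraries with enough cells, lower than the mean of the other gates by -3.87 on the log2 scale (SE 0.82, adjusted p 0.00056). Mesenchyme held 8.38, 32.5, 14.3 and 19.7 CPM of *dll4*, and each of the 3 libraries had less in osteoblasts. Against mesenchyme *dll4* was the gene that passed in osteoblasts (log2 fold change -3.28, SE 0.91, adjusted p 0.0111), the only 1 of 21 to be lower, with 0 higher, where 8.8% of all genes were lower and 3.27% higher. The pooled counts of 76 and 2 UMIs gave a ratio of mesenchyme to osteoblasts of 12.2 (95% interval 3.27 to 102.8). It did not pass without adult replicate 2 (-3.18, adjusted p 0.16).

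The Jagged ligands *jag2a* and *jag2b* shared the endothelial pattern at a lower level. *jag2a* stood at 48.6, 78.1, 64.8 and 82.3 CPM in endothelial cells from 16 UMIs, and at no more than 4.88 CPM in any library of the other 5 gates. In adult replicate 2, 0 UMIs in neural cells allow up to 140.1 CPM, so that order could not be seen. *jag2b* stood at 19.4, 195, 25.9 and 103 CPM in endothelial cells from 14 UMIs. Its highest value elsewhere was 33.1 CPM in neural cells of adult replicate 1, so its libraries overlapped with that gate. The log2 fold changes were 5.59 (SE 0.78, adjusted p 1.16e-06) for *jag2a* and 4.92 (SE 0.85, adjusted p 4.20e-05) for *jag2b*. *jag2a* passed the filter on low counts only through its endothelial sums, so its place among the genes tested depended on this gate.

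*jag1b* followed another pattern. In mesenchyme it stood at 37.1, 65.1, 32.9 and 20.3 CPM, and its log2 fold change over the other gates was 1.86 (SE 0.37, adjusted p 0.000149). In neural cells it stood at 3.89, 6.02, 0 and 0 CPM, lower than the other gates by -2.99 on the log2 scale (SE 0.58, adjusted p 4.54e-05), and this call was lost without juvenile replicate 2 (-1.99, adjusted p 0.0517). In juvenile replicate 2, mural cells reached 130.5 CPM from 7 UMIs and endothelial cells 156 CPM from 4 UMIs, both above the mesenchyme, and in adult replicate 1 endothelial cells stood at 38.9 CPM from 3 UMIs, while mural cells of the adult replicates held 0 and 4.27 CPM. Epithelial cells, outside the 6 gates, exceeded the mesenchyme in 3 libraries, at 71.1, 97.9 and 48.7 CPM, and held 0 UMIs in juvenile replicate 1. *jag1a* had 17 UMIs over all 6 gates.

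**Figure D2:**
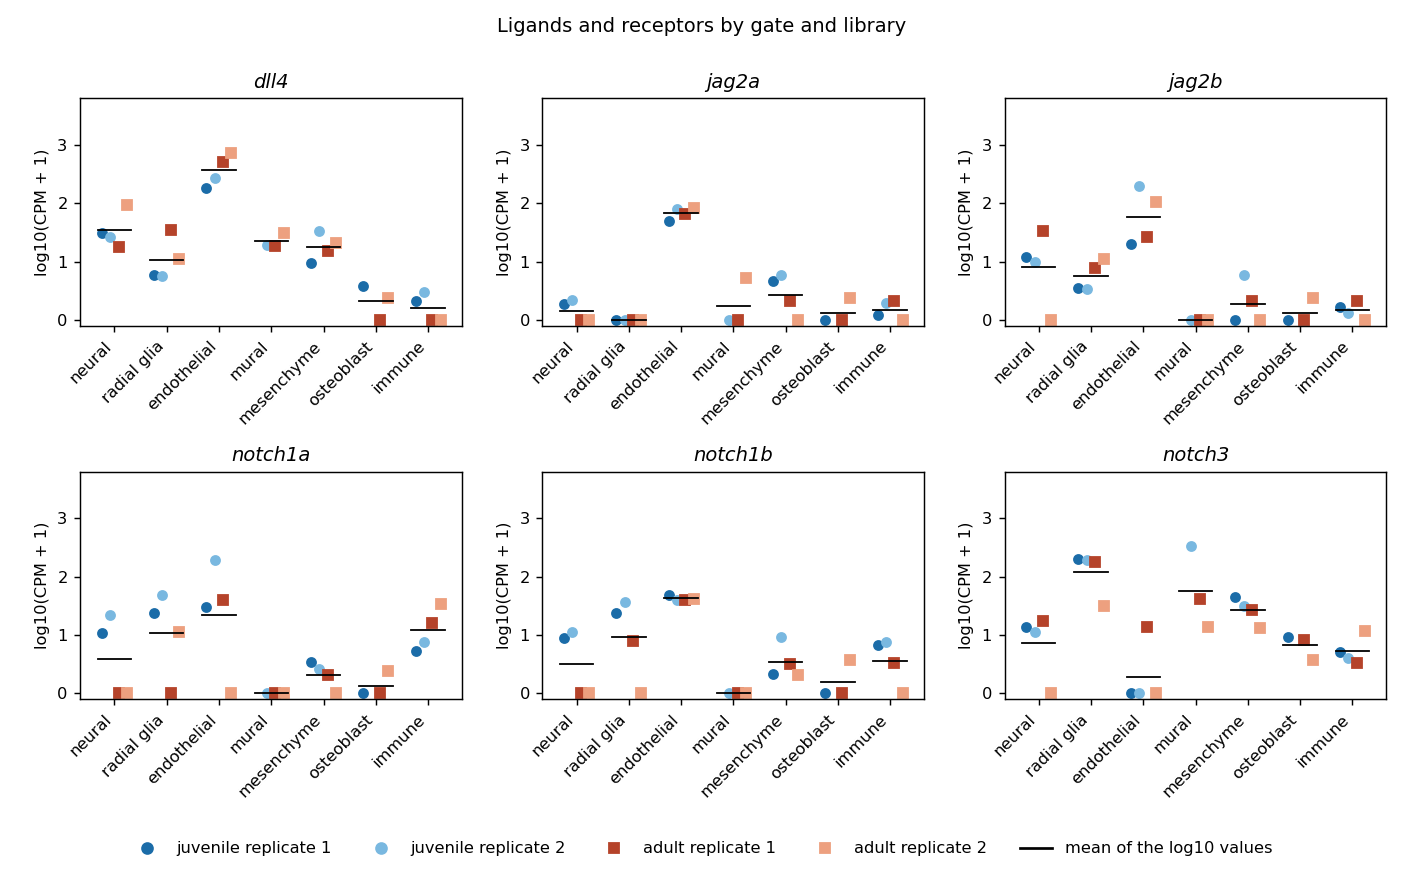
Levels of 3 ligands and 3 receptors as log10(CPM + 1) on the vertical axes, by gate; each point is a library with at least 10 cells in the gate, circles are juvenile and squares adult, and bars are means of the log10 values. The values of *dll4* and *jag2a* lie higher in endothelial cells than in every other gate, where some are counts of 0. *notch3* is high in radial glia and in mural cells of juvenile replicate 2 (336 CPM).

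The 4 receptors divided among the gates. *notch3*, the receptor of radial glia and of vascular smooth muscle in vertebrates, stood at 200.1, 194, 180.2 and 30.7 CPM in radial glia. In mural cells it stood at 336, 40.3 and 12.8 CPM in the 3 libraries tested. Mesenchyme held 38.6 CPM of *notch3* over the juvenile and 16.8 CPM over the adult replicates, against 21.7 CPM in adult mural cells. Radial glia exceeded neural cells (13.0, 10.2, 16.6 and 0 CPM) in the first 3 libraries and over all 4 by 4.34 on the log2 scale (SE 0.54, adjusted p 1.16e-07). Endothelial cells held 1 UMI of *notch3* in all, at 0, 0, 13.0 and 0 CPM. Mural cells exceeded them in juvenile replicate 2 and adult replicate 1, while in adult replicate 2 the 0 UMIs of endothelial cells allow up to 61.7 CPM (log2 fold change 4.81, SE 1.04, adjusted p 0.00124), and the pooled counts of 33 and 1 UMIs gave a ratio of 11.3 (95% interval 1.88 to 457.7). The mural excess over all other gates was 2.43 (SE 0.50, adjusted p 0.000833). Both mural calls rested on juvenile replicate 2, without which the adjusted p were 0.0514 against endothelial cells and 0.336 against all gates.

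*notch1a* and *notch1b*, the receptors through which endothelial cells answer Dll4, were counted in endothelial cells with 11 UMIs each. *notch1a* stood there at 29.2, 195, 38.9 and 0 CPM and *notch1b* at 48.6, 39.0, 38.9 and 41.1 CPM. The values of *notch1b*, from 5, 1, 3 and 2 UMIs, lay above those of the other 5 gates, though epithelial cells of adult replicate 1 reached 68.5 CPM. Counts of 0 in adult neural cells allow up to 49.7 and 140.1 CPM, and in mural cells of juvenile replicate 2 up to 55.9 CPM. The order against these sums could therefore not be seen. *notch1a* was missing from adult replicate 2 and its range overlapped with radial glia. The log2 fold changes of *notch1a* and *notch1b* over the other gates were 3.81 (SE 0.85, adjusted p 0.00134) and 3.65 (SE 0.82, adjusted p 0.00147). Both were also higher in radial glia than in the other gates, by 2.48 and 2.25, at 22.5, 48.0, 0 and 10.2 CPM for *notch1a* and 22.5, 36.0, 6.93 and 0 CPM for *notch1b*, so that nearly all of these UMIs came from the juvenile replicates. Mural cells of the 3 libraries tested held 0 UMIs of either receptor and of *jag2b*. Taking 3 counts over the gate as the limit, they held at least 10.8-fold less of each receptor and at least 13.7-fold less *jag2b* than endothelial cells over the pooled libraries. Within libraries the same limit gave less. For *notch1a* it was at least 3.49-fold in juvenile replicate 2 and 2.895-fold in adult replicate 1, with no bound in adult replicate 2, where endothelial cells also held 0 UMIs. For *notch1b* it was at least 2.895-fold and 6.43-fold in the adult replicates, with no bound in juvenile replicate 2, and for *jag2b* at least 3.49-fold, 1.93-fold and 16.1-fold.

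Between the vascular gates, 8 of the 21 genes were lower in mural than in endothelial cells and 1, *notch3*, was higher, where 4.63% of all genes were lower and 5.43% higher. The median log2 fold change of the 21 was -1.26 against 0.29 over all genes. Beside *notch1a*, *notch1b* and *jag2b*, the lower genes were *dll4*, *jag2a*, *her4.2*, *her6* and *her9*. The count of 9 was 5 without juvenile replicate 2, 4 without adult replicate 1 and 2 without adult replicate 2. *dll4* passed without each library in turn. *notch3* did not pass without juvenile replicate 2. Without adult replicate 1, *jag2a*, *notch1a*, *notch1b*, *her6* and *her9* did not pass (adjusted p 0.0646 to 0.622), and without adult replicate 2 these and *jag2b* and *her4.2* did not (adjusted p 0.0697 to 0.483). Without juvenile replicate 2, *jag2a* also did not pass (adjusted p 0.0782), and *jag2b* and *notch1a* had too few UMIs to be tested, as had *notch1b* without juvenile replicate 1.

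*notch2* was higher in mesenchyme than in the other 5 gates, at 44.3, 58.6, 43.9 and 32.9 CPM, with a log2 fold change of 2.06 (SE 0.31, adjusted p 1.99e-06). Each of these values exceeded those of the other 5 gates of the same library, though gates at 0 UMIs do not settle the order everywhere. Neural cells of the adult replicates held 0 UMIs, which allows up to 49.7 and 140.1 CPM. Cells outside these gates held as much, since immune cells stood at 34.5, 29.8, 61.6 and 32.9 CPM and juvenile myelinating glia at 64.2 and 54.1 CPM. Neural cells stood at 10.4, 4.42, 0 and 0 CPM, lower than the other gates by -2.16 on the log2 scale (SE 0.48, adjusted p 0.000278), and this call was lost without juvenile replicate 2 (-1.58, adjusted p 0.0558). Osteoblasts held 19.4, 18.4 and 8.40 CPM in the 3 libraries with enough cells.

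Among the target genes, *her4.1* to *her4.4* and *her15.1* are relatives of mammalian *Hes5* that Notch signals switch on in neural progenitors. The *her4* genes are near-identical tandem copies, so the division of reads among them is uncertain, and reads that fit several copies may not have been counted. *her15.1* stood at 1781, 3519.6 and 1199 CPM in radial glia of juvenile replicate 1, juvenile replicate 2 and adult replicate 1, and *her4.1* at 1628, 2791 and 1261 CPM. In adult replicate 2, whose cells lacked the core markers, the same genes stood at 30.7 and 184 CPM. Within the core-marker cells of adult replicate 1 lay all 173 UMIs of *her15.1* and all 182 UMIs of *her4.1* of that gate.

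Neural cells of the juvenile replicates held 548 and 477 CPM of *her15.1* and 222 and 168 CPM of *her4.1*, below radial glia and above the juvenile immune level. The log2 fold change of radial glia over neural cells was 3.90 for *her15.1* (SE 0.67, adjusted p 1.89e-05) and 4.75 for *her4.1* (SE 0.71, adjusted p 1.95e-06). *her4.3*, the copy with the fewest UMIs, stood at 198, 338, 333 and 0 CPM in radial glia and at 24.7, 21.9, 0 and 0 CPM in neural cells (log2 fold change 4.00, SE 0.61, adjusted p 2.77e-06). *her4.2* and *her4.4* rose by 3.50 each. Adult neural cells held 0 UMIs of *her15.1*, *her4.1*, *her4.3* and *her4.4*, so these sizes depend on the fit. In juvenile replicates 1 and 2, where both gates had counts, the log2 ratios of radial glia to neural cells were 1.70 and 2.88 for *her15.1*, 2.88 and 4.05 for *her4.1* and 3.003 and 3.95 for *her4.3*.

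*her8a*, a *her* gene of the nervous system, stood at 80.0, 64.7, 27.7 and 71.6 CPM in radial glia and at 3.03, 2.61, 0 and 0 CPM in neural cells. The fold change of radial glia was 4.89 over neural cells (SE 0.66, adjusted p 1.02e-06) and 7.21 over all other gates (SE 0.71, adjusted p 1.89e-09) on the log2 scale. Since *her8a* had 0 UMIs in the endothelial, mural and osteoblast sums tested, the second value is no measure of size. *her8a* passed the filter on low counts only through radial glia, so its place among the genes tested depended on this gate. The log2 ratios to neural cells in the juvenile replicates were 4.72 and 4.63. Adult replicate 2 did not stand apart by low values for *her8a*, nor for *her12*, another *Hes5* relative. Its UMIs came from 3 of 52 cells for *her8a* and 4 of 52 for *her12*, in the gate that went against its label. *her12* stood at 107.5, 456, 0 and 184 CPM in radial glia (log2 fold change over the other gates 5.82, SE 0.55, adjusted p 5.02e-10). The remaining values over the other gates were 6.56 for *her4.1* (SE 0.46, adjusted p 4.02e-14), 6.00 for *her15.1* (SE 0.45, adjusted p 3.24e-13) and 5.55 for *her4.3* (SE 0.49, adjusted p 1.60e-11).

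In all, 17 of the 21 genes were higher in radial glia than in neural cells and 0 were lower, where 18.4% of all genes were higher and 16.3% lower. The 21 do not include *dlb*, which stood higher in neural cells in both juvenile replicates but did not pass the filter on low counts. That filter asks for enough counts in at least as many sums as the smallest gate had, and juvenile neural cells gave fewer. A count of 0 lower therefore covers only the genes kept. The median log2 fold change of the 21 was 3.12 against -0.11 over all genes. The count was 11 without juvenile replicate 2. With the radial glia of adult replicate 2 left out the same 17 genes passed, and the 14 genes higher than in all gates passed too. With radial glia restricted to cells with 2 core markers, 15 of the 17 and 13 of the 14 passed. The other genes that passed against neural cells were *her2*, *her6*, *her9*, *hey1*, *hey2*, *dla*, *jag1b*, *notch1b*, *notch2* and *notch3*, while *notch1a*, *jag2a*, *jag2b* and *dll4* did not pass.

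**Figure D3:**
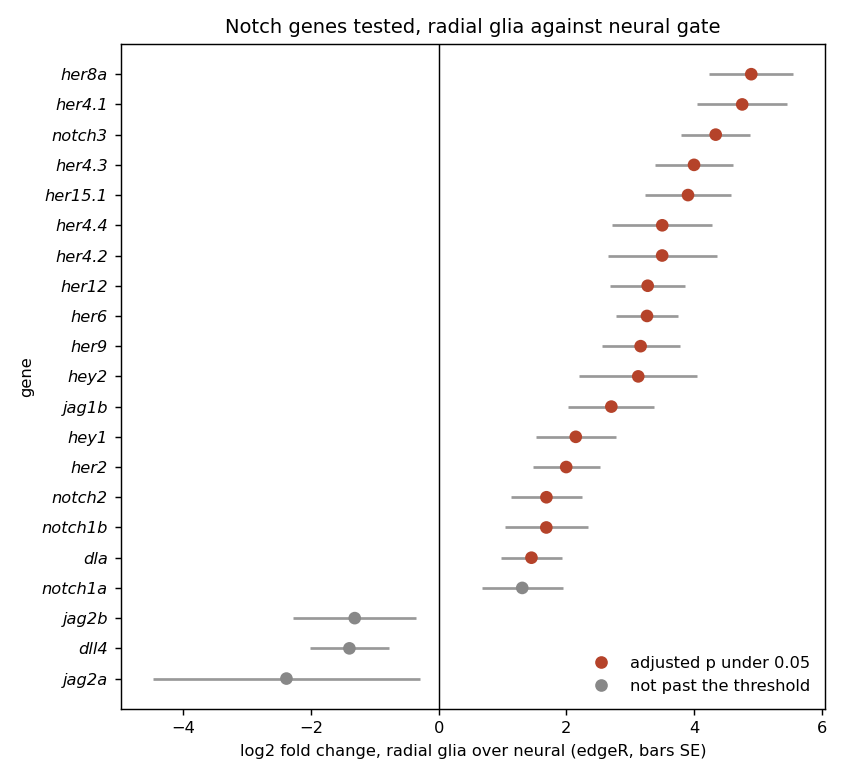
log2 fold change of radial glia over neural cells for the 21 genes tested, with bars of 1 SE; red points passed at an adjusted p under 0.05. *her8a* (4.89) and *her4.1* (4.75) lie farthest to the right, and the 4 grey points are *notch1a*, *jag2b*, *dll4* and *jag2a*.

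The share of cells with a UMI followed the same order in juvenile replicate 2. After each cell was thinned to 1000 UMIs, *her15.1* was seen in 56.0% of radial glia of juvenile replicate 2 (125 cells, exact 95% interval 46.8 to 64.9) and in 12.3% of its neural cells (1541 cells, 10.7 to 14.0). Its immune cells gave 6.13% (1272 cells, 4.88 to 7.59). The unthinned shares were 64.6%, 19.4% and 15.9%, at median depths of 1943, 1537.5 and 3823 UMIs. For *her4.1* the thinned shares were 44.0%, 5.78% and 2.36%. For any *her4* gene the unthinned shares in radial glia and neural cells were 63.8% and 34.2% in juvenile replicate 1. In the adult replicates they were 32.7% and 0%, and 9.62% and 7.69%, the last from 1 of 13 cells.

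Delta and *her4* transcripts were also counted in the same cells, with *dla*, *dlb* or *dld* as Delta and any of the 4 *her4* genes. In radial glia of the juvenile replicates, 28 of 33 (84.8%) and 28 of 31 (90.3%) Delta-bearing cells also had a *her4* UMI. Of the other radial glia 60% and 64.7% had one. In neural cells this held for 73 of 126 (57.9%) and 102 of 194 (52.6%) Delta-bearing cells, against 31.96% and 23.1% of the other neural cells. In mesenchyme, whose *her4.1* and *her4.2* levels were those of immune cells, 33.8% and 21.7% of cells had a *her4* UMI at medians of 2738 and 2483 UMIs. Neural cells without Delta were shallower, so these shares are not comparable, and the part of free RNA in them was not tested. In CPM, all neural cells of juvenile replicate 1 held 222 of *her4.1* and 421 of *her4.2*, against 36.7 and 62.3 in its immune cells. The Delta-bearing neural cells were deeper, with medians of 1375.5 and 2678 UMIs against 1088.5 and 1465. So were the Delta-bearing radial glia, with medians of 1751 and 3824 UMIs against 1281.5 and 1771. The part of depth in these differences was not tested.

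**Figure D4:**
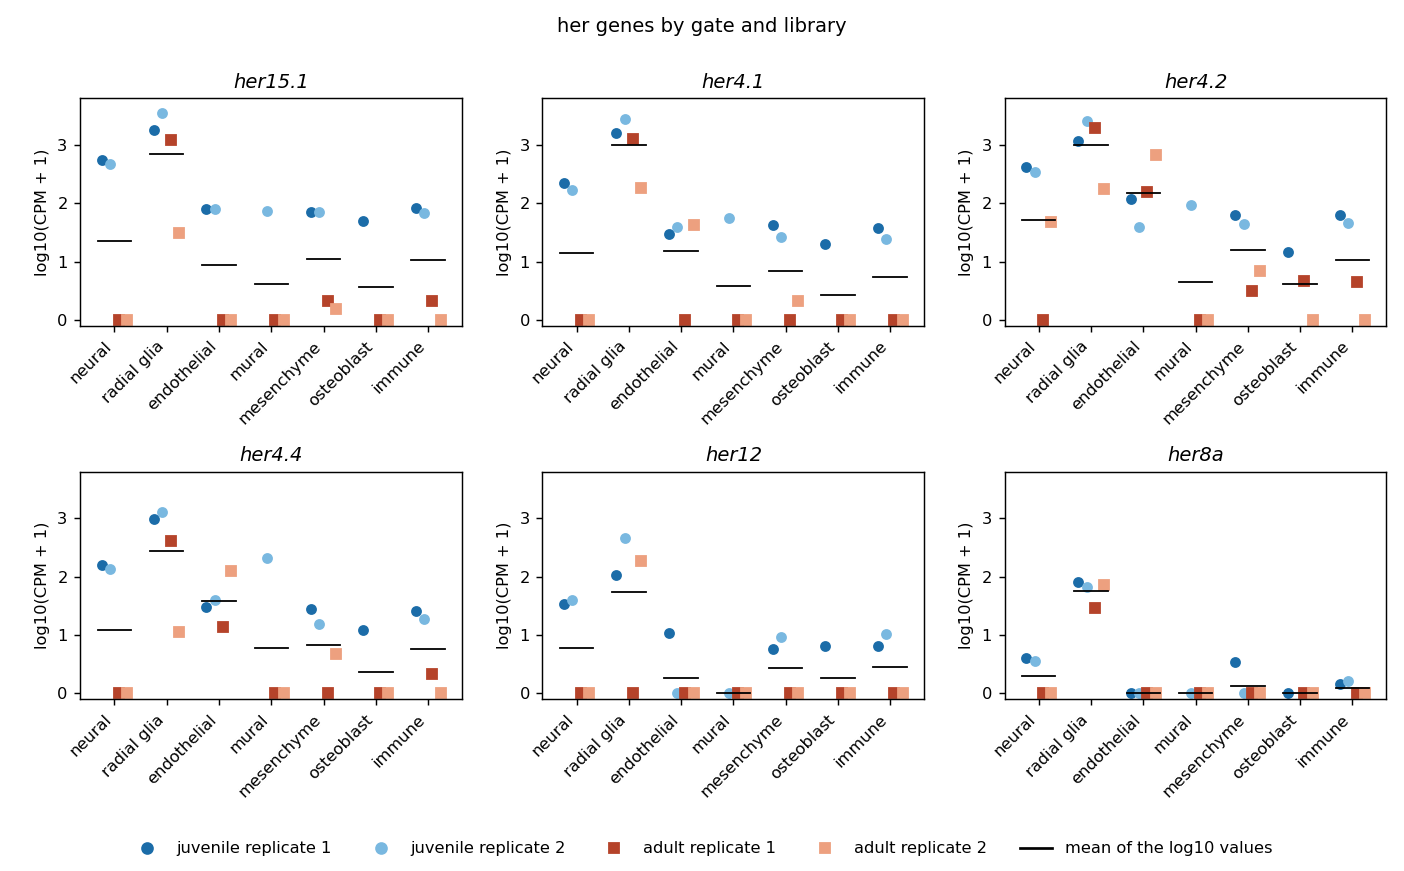
Levels of 6 *her* genes as log10(CPM + 1) on the vertical axes, by gate; points are libraries with at least 10 cells, circles juvenile and squares adult, and bars are means of the log10 values. Radial glia stand highest for all 6 genes in juvenile libraries, and juvenile mesenchyme lies beside juvenile immune cells for *her15.1* (69.4 and 71.6 against 82.9 and 68.8 CPM).

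Endothelial cells also held *her4.2*, in another proportion to the rest of the group than radial glia. It stood there at 117, 39.0, 156 and 679 CPM, from 12, 1, 12 and 33 UMIs. Juvenile immune cells held 52.5 CPM over both replicates, so the endothelial value of juvenile replicate 2 lay under that level. In the adult replicates the immune level was 3.49 and 0 CPM, the latter allowing up to 32.9 CPM. The endothelial intervals there were 80.4 to 272 and 467 to 953 CPM. The 12 UMIs of adult replicate 1 all came from 1 of 26 cells, and the 33 of adult replicate 2 from 6 of 21 cells. In the same adult endothelial cells *her15.1* had 0 UMIs, *her4.1* 0 and 2 UMIs and *her4.4* 1 and 6 UMIs, whereas radial glia of adult replicate 1 held 278, 173 and 182 UMIs of *her4.2*, *her15.1* and *her4.1*. The log2 fold change of *her4.2* in endothelial cells over the other gates was 2.51 (SE 0.74, adjusted p 0.0184). In osteoblasts *her4.2* stood at 13.8, 3.68 and 0 CPM and was lower than the other gates by -3.78 (SE 1.14, adjusted p 0.0173), a call lost without juvenile replicate 1, juvenile replicate 2 or adult replicate 2 (adjusted p 0.0517 to 1). The juvenile osteoblast value lay under the immune level of that library (62.3 CPM).

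*her6*, the relative of mammalian *Hes1*, had the most UMIs of the 32 genes, 9253 over the 6 gates. It stood at 1608, 1870.1, 1483 and 2414 CPM in radial glia, at 1963, 3786, 1218 and 2283 CPM in endothelial cells, and at 1171, 2035, 882 and 979 CPM in mesenchyme. Neural cells held less than each of these in every library, at 215, 137, 563 and 140.1 CPM, and lay below the other gates by -2.55 on the log2 scale (SE 0.42, adjusted p 3.13e-06). The mesenchyme excess was 1.13 (SE 0.31, adjusted p 0.00687), and it did not pass without juvenile replicate 1 (1.00, adjusted p 0.102). Osteoblasts held 246, 471 and 487 CPM, less than the mesenchyme of the same library in each of the 3 libraries, and this difference did not pass the test.

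*her9*, a second *Hes1*-type gene, was lower in neural cells than the mean of the other gates, at 93.0, 115, 16.6 and 280.1 CPM (log2 fold change -2.81, SE 0.54, adjusted p 3.36e-05). Endothelial cells held 525, 702, 1257 and 1974 CPM, mesenchyme 382, 491, 336 and 371 CPM, and osteoblasts 373, 313 and 338 CPM. Mural cells held 802, 26.9 and 102 CPM, and in adult replicate 2 they lay below neural cells. The mesenchyme and osteoblast values overlapped, and both lay in the range of immune cells.

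**Figure D5:**
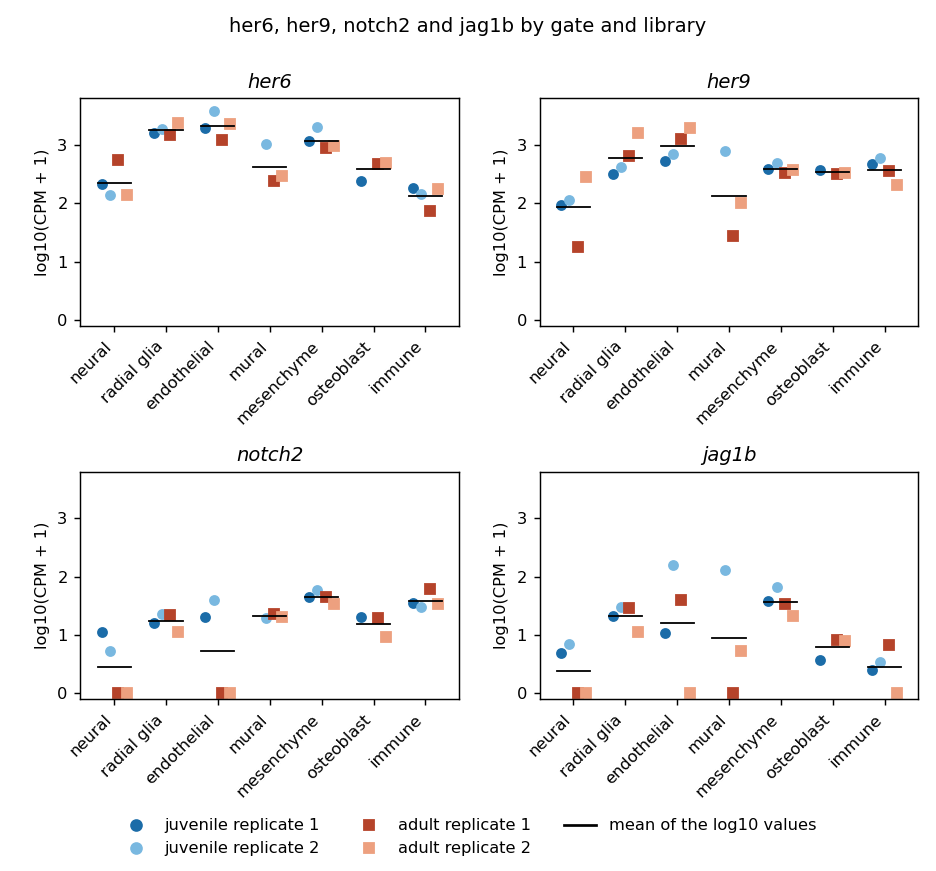
Levels of *her6*, *her9*, *notch2* and *jag1b* as log10(CPM + 1) on the vertical axes, by gate; points are libraries with at least 10 cells, circles juvenile and squares adult, and bars are means of the log10 values. *notch2* and *jag1b* reach 32.9 to 58.6 and 20.3 to 65.1 CPM in mesenchyme, and *her6* is lower in neural cells than in radial glia, endothelial cells and mesenchyme of each library.

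The *hey* genes, targets known from arteries and the heart, were low. *hey1* stood at 62.5, 79.1, 62.4 and 30.7 CPM in radial glia, higher than the mean of the other gates by 1.44 (SE 0.48, adjusted p 0.0363). In endothelial cells it stood at 9.72, 0, 51.8 and 185 CPM, with 1 UMI in the juvenile and 13 in the adult replicates. Radial glia were exceeded by mural cells in juvenile replicate 2, at 112 CPM, and by endothelial cells in adult replicate 2. *hey2* had 4 UMIs in all mesenchyme cells, at 0, 1.63, 1.10 and 1.10 CPM, lower than the other gates by -2.93 (SE 0.91, adjusted p 0.0176), and this call was lost without juvenile replicate 1 or adult replicate 2 (adjusted p 0.111 and 0.0553). *her1*, *her3* and *her5* had 0 UMIs in the 6 gates, *her11* had 2, *her7* had 5, *her13* had 27 and *her8.2* had 62, of which 48 were in juvenile radial glia (80.0 and 38.4 CPM).

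Stages were compared within a gate, with 2 libraries each. Sorting against *cdh1:mlanYFP* was done at both stages, and for the remaining libraries stage and sort cannot be told apart. In neural cells 4 of 16 genes tested were lower in adults and 0 higher, where 0.385% of all genes were lower and 0.154% higher. Since 10 of the 16 had 0 adult UMIs, their fitted median of -8.28 (-0.53 over all genes) is no measure of size. Those 10 were then taken from counts pooled per stage, with the adult cells at 3 counts. With a change of 0 where this limit exceeded the juvenile level, the median was -0.08. That median is no measure of size either. The 4 were *her15.1*, *her4.1*, *her4.2* and *her4.4*, with adjusted p of 0.00181, 0.0259, 0.0133 and 0.0451. *her15.1* fell from 548 and 477 CPM to 0 and 0 CPM, at least 13.6-fold lower at 3 counts over the adult cells. By the same limit *her4.1* was at least 5.05-fold and *her4.4* at least 3.90-fold lower, and *her4.2* had 2688 juvenile UMIs and 1 adult UMI, a ratio of 30.1 (95% interval 5.41 to 1191). Adult neural cells numbered 26 and 13. The count was 2 without juvenile replicate 1 or juvenile replicate 2, 0 without adult replicate 1 and 1 without adult replicate 2. Under the *cdh1:mlanYFP* gate alone the values were 548 CPM of *her15.1* in juvenile and 0 in adult cells.

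In mesenchyme 3 of 11 genes tested were lower in adults and 0 higher, where 0.996% of all genes were lower and 0.96% higher. *her15.1* stood at 69.4, 71.6, 1.10 and 0.548 CPM (log2 fold change -6.08, SE 0.71, adjusted p 0.00356), *her4.1* at 41.9, 26.0, 0 and 1.10 CPM (-5.09, SE 0.86, adjusted p 0.0144) and *her4.2* at 62.2, 43.9, 2.196 and 6.03 CPM (-3.24, SE 0.64, adjusted p 0.0279). The pooled counts gave ratios of juveniles to adults of 96.2 for *her15.1* (95% interval 25.95 to 804.9) and 48.1 for *her4.1* (12.6 to 407.8), with 2 adult UMIs each. Juvenile immune cells held much the same as juvenile mesenchyme, at 82.9 and 68.8 CPM for *her15.1*, 36.7 and 23.5 CPM for *her4.1* and 62.3 and 45.1 CPM for *her4.2*. The immune values were also lower in adults, at 1.16 and 0, 0 and 0, and 3.49 and 0 CPM. In adult replicate 2, however, 0 UMIs in immune cells allow up to 32.9 CPM. That limit lies above the 23.5 CPM of *her4.1* in juvenile replicate 2, so a fall of *her4.1* could not be seen there. *her4.1* did not pass without juvenile replicate 1 (adjusted p 0.103). The other 8 genes, *her6*, *her9*, *notch2*, *notch3*, *jag1b*, *dll4*, *hey1* and *her4.4*, did not pass, with log2 fold changes from -2.81 (*her4.4*) to 0.11 (*dll4*).

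In radial glia 0 of 14 genes passed edgeR's test between stages (0% of all genes passed), 4 had an unadjusted p under 0.05, and DESeq2 called 0. *her15.1* was below both juvenile values in both adult replicates, at 1781 and 3519.6 against 1199 and 30.7 CPM, and the adult replicates lay farther apart from each other than adult replicate 1 lay from juvenile replicate 1. Without adult replicate 2, *her12* and *her8.2* passed, both at 0 UMIs in adult replicate 1, whose 144287 UMIs allow up to 20.8 CPM. Without adult replicate 1 the count was 8, a comparison that rests on the cells without core markers. In endothelial cells 0 of 3 genes tested passed edgeR's test (1.04% of all genes passed), 2 had an unadjusted p under 0.05, and DESeq2 called 0. *dll4* stood at 185 and 273 CPM in juvenile and 518 and 740 CPM in adult endothelial cells, without overlap (log2 fold change 1.33, SE 0.58, adjusted p 0.294). *her9* also did not overlap, at 525 and 702 against 1257 and 1974 CPM (1.24, SE 0.47, adjusted p 0.244). Mural cells and osteoblasts had 1 juvenile library each and gave no stage test. Whether a difference between 2 gates changed with stage was tested for 19 terms on these genes in edgeR. Of these 0 passed, where 0.376% of all genes passed for radial glia and neural cells, 0% for mural and endothelial cells and 0.391% for osteoblasts and mesenchyme, and 7 had an unadjusted p under 0.05. The juvenile side of the vascular pair and of the bone pair was 1 library, assumed to vary like the others. DESeq2 was not run on these terms.

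Of 52 further genes of the pathway that were listed, 47 were in the tables and 12 had enough UMIs to be tested between gates. In radial glia 4 were higher than in the other gates and 0 lower, against 13.1% and 1.41% of all genes, and in endothelial cells 3 were higher and 1 lower, against 7.67% and 5.42%. In neural cells 3 were higher and 1 lower, no larger a share than the 31.4% and 18.3% of all genes. In mesenchyme 1 was higher and 0 lower, against 17.2% and 1.23%, and in mural cells and osteoblasts 0 were higher and 1 lower, against 6.23% and 1.1% in mural cells and 10.4% and 5.03% in osteoblasts. *nrarpa*, a target that feeds back on the receptor complex, stood at 62.5, 62.3, 76.2 and 81.8 CPM in radial glia and at 6.92, 8.03, 0 and 0 CPM in neural cells (log2 fold change 3.74, SE 0.56, adjusted p 2.03e-06). It was level over the 4 radial glia libraries, adult replicate 2 included. *neurod1*, which drives neuronal differentiation, went the other way, at 42.5, 24.0, 0 and 0 CPM against 274, 406, 16.6 and 140.1 CPM (-3.29, SE 0.56, adjusted p 1.64e-05), and *nrarpb* rose by 2.35 (SE 0.57, adjusted p 0.00118).

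*lfng*, the glycosyltransferase that tunes which ligand a receptor answers, stood at 136, 312, 90.7 and 226 CPM in endothelial cells and at 0, 4.48 and 12.8 CPM in the mural cells tested (log2 fold change of mural over endothelial cells -3.60, SE 0.77, adjusted p 0.00107). *nrarpb* stood at 48.6, 39.0, 129.6 and 41.1 CPM in endothelial cells and at 37.3, 0 and 2.13 CPM in mural cells (-3.10, SE 0.95, adjusted p 0.0281). The pooled counts of 18 and 3 UMIs gave a ratio of endothelial to mural cells of 17.6 (95% interval 5.14 to 93.3). In juvenile replicate 2 these gates were nearly level, at 39.0 and 37.3 CPM. In osteoblasts, *nrarpa* stood at 2.77, 0 and 0 CPM against 15.6, 29.3, 9.88 and 9.32 CPM in mesenchyme (-3.53, SE 1.08, adjusted p 0.0235), with 57 and 1 UMIs and a ratio of mesenchyme to osteoblasts of 18.3 (95% interval 3.16 to 737.2). *bhlhe41*, a repressor tied to the circadian clock, was also lower in osteoblasts, at 5.53, 18.4 and 9.80 CPM against 32.3, 52.1, 38.4 and 119.5 CPM (-2.07, SE 0.57, adjusted p 0.0106). In the stage tests 0 pathway genes passed in edgeR, with an unadjusted p under 0.05 for 1 of 23 in neural cells, 2 of 12 in radial glia, 0 of 1 in endothelial cells and 2 of 13 in mesenchyme. DESeq2 called 1, *neurod1*, lower in adult neural cells (log2 fold change -3.24, adjusted p 0.0111, against 0.0511 in edgeR).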

How the data were processed

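The authors deposited raw UMI counts for each gene in each barcode, made with Cell Ranger at default settings on GRCz11. The annotation behind them was not given in the sources used here. For 123 symbols listed repeatedly the identifiers were kept separate. The submitters' processing notes name Seurat 4.1.1. As in the study's methods, a cell needed above 200 and below 2500 detected genes, with less than 25% of its UMIs mitochondrial. Doublets were not removed, and cells above the 95th percentile of UMIs were left out in an alternative. Cells were gated by 14 lists of 10 markers each. The genes described, the lists, the gates and the tests were chosen with earlier results of these data known.

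UMIs were summed per library and gate (at least 10 cells, 22 sums) and compared with edgeR 4.0.16 (TMM, filterByExpr, quasi-likelihood test, limma 3.58.1, R 4.3.3) with the library as a block. Adjustment was by Benjamini-Hochberg over all genes tested, with a threshold of 0.05. SE is the fold change divided by the square root of F. Stage tests had no block. Both models were tested on simulated data. The text gives every library for up to 5 of the genes per comparison, those with the largest fold change among genes that passed and had at least 20 UMIs, and for up to 3 pathway genes per pair of gates. Values of other genes stand where they set the order or the limits of these, and were chosen after they were seen. Shares carry exact Clopper-Pearson intervals of 95%, and cells were thinned to 1000 UMIs with shallower cells left out. A level or fold against a gate at 0 uses a limit of 3 counts. Alternatives were DESeq2 1.42.0, RLE normalization, no filter, looser and stricter gates, all barcodes, thinned cells, no block and each library left out. No genome of the build used was at hand, so no coordinates or sequences are given. Python 3.11.15, numpy 2.4.6, pandas 2.3.3 and scipy 1.17.1 were used.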

Additional observations from a re-analysis of the deposited data

Results flagged for a closer look

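Among contrasts of 2 gates with at least 20 UMIs in the libraries compared, 4 went one way in every juvenile library and the other way in every adult library that had both gates. The juvenile side was 1 library in each case, juvenile replicate 2 for the vascular gates and juvenile replicate 1 for the bone gates. *her4.2* in mural minus endothelial cells averaged 54.2 CPM in juvenile and -417 CPM in adult libraries. *her9* in the same contrast averaged 99.1 CPM in juvenile and -1551 CPM in adult libraries, and its interaction of gate and stage had an adjusted p of 0.254 in edgeR, with that 1 juvenile library assumed to vary like the others. *hey1* averaged 112 CPM in juvenile and -109.6 CPM in adult libraries between the same gates. In osteoblasts minus mesenchyme *hey1* averaged -12.0 CPM in juvenile and 2.80 CPM in adult libraries. The differences of *her4.2* and *hey1* were not tested, since both genes were too rare in these gates. The 16 mural and 13 endothelial cells of juvenile replicate 2 carried 53643 and 25623 UMIs, so 1 UMI was worth 18.6 and 39.0 CPM. The juvenile endothelial value of *her4.2* was 1 such UMI, under the 52.5 CPM of juvenile immune cells over both replicates. *her4.4* and *hey2*, with 19 and 12 UMIs in the vascular gates of the 3 libraries, had the same pattern, at 166.0 and 54.2 CPM in juvenile replicate 2 and at -13.0 and -123 CPM and -64.8 and -20.6 CPM in the adult replicates.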

How the results depend on the processing

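Of 541 values of single genes recomputed under the alternatives, 497 kept their direction and their side of the threshold, 44 kept the direction and no longer passed, and 0 reversed. Values that an alternative could not give, as for genes with too few UMIs, are not among the 541. Cells thinned to 1000 UMIs gave 13 values that held and 3 that no longer passed, where RLE normalization gave 40, all of which held. Thinning each cell to 1000 UMIs also left out shallower cells. With it the count of genes past the threshold was 3 in neural cells, 7 in radial glia, 3 in endothelial cells, 1 in mesenchyme and 1 in osteoblasts against the other gates, 7 for radial glia against neural cells, 4 for mural against endothelial cells, 0 for osteoblasts against mesenchyme and 1 between stages in mesenchyme. Without the cells above the 95th percentile of UMIs it was 6 in neural cells and 1 in osteoblasts, 0 for osteoblasts against mesenchyme and 2 between stages in neural cells. The DESeq2 Wald test called 5 in neural cells. With no filter on low counts 2 passed in mural cells, 1 between stages in radial glia and 2 among the interactions of gate and stage. A gate of 4 markers gave 2 in mural cells, 7 in mesenchyme and 2 between stages in neural cells, and a gate of 2 markers gave 7 in mesenchyme, 1 in osteoblasts, 1 between stages in radial glia and 1 among the interactions. For all of these the cause was not tested.

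The replicate numbers pair no libraries, and the library itself was the block. With no replicate block the counts were 7, 13, 6, 1, 4 and 1 in neural cells, radial glia, endothelial cells, mural cells, mesenchyme and osteoblasts, and 13, 7 and 1 for radial glia against neural, mural against endothelial and osteoblasts against mesenchyme. *her15.1* in radial glia against neural cells (2.74, adjusted p 0.135), *her4.2* in mural against endothelial cells (-3.98, adjusted p 0.145) and *her4.2* in osteoblasts (-3.81, adjusted p 0.080) then no longer passed. No paired analysis was possible for the stages because their libraries share no label-given number.

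Leaving out each library in turn gave 4 to 9 genes in neural cells, 10 to 17 in radial glia, 6 to 8 in endothelial cells, 1 to 2 in mural cells, 1 to 4 in mesenchyme and 1 to 3 in osteoblasts. It gave 11 to 21 for radial glia against neural cells, 2 to 9 for mural against endothelial cells and 0 to 1 for osteoblasts against mesenchyme. Between stages it gave 0 to 2 in neural cells, 0 to 8 in radial glia, 0 to 0 in endothelial cells and 2 to 4 in mesenchyme; a lone library is then assumed to vary like the others. Restricting radial glia to cells with 2 core markers and leaving out the radial glia of adult replicate 2 were chosen after seeing the data. Stage tests of mural cells and osteoblasts were not run, with 1 juvenile library each. Adult neural sums of 60376 and 21419 UMIs and endothelial sums of 25623 to 102909 UMIs limit what low genes can show, and the *her4* copies cannot be told apart with certainty.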

Other observations

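Gates outside the 6 described held several of the genes. Epithelial cells held *her9* at 1686, 1373, 558 and 1009 CPM and *jag1b* at 0, 71.1, 97.9 and 48.7 CPM, from 10, 306, 23 and 42 cells in libraries of which 2 were sorted against an epithelial reporter. Myelinating glia, of which the juvenile replicates held 260 and 231 cells, carried *her9* at 763 and 999.5 CPM, *notch3* at 82.0 and 79.7 CPM and *notch2* at 64.2 and 54.1 CPM. Hair cells, the sensory cells of neuromasts, where Delta ligands single out a hair cell from its supporting neighbours, held *dld* at 85.8 and 69.8 CPM, *dll4* at 128.7 and 95.9 CPM and *jag2b* at 114 and 69.8 CPM in 23 and 30 cells of the juvenile replicates. In the 14 hair cells of adult replicate 1, *dld* and *dll4* had 0 UMIs, which allows up to 41.3 CPM. Photoreceptors of adult replicate 1, 58 cells, held *jag2b* at 137.9 CPM from 35 UMIs.

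*her12* and *her15.1* parted in adult libraries. The radial glia gate of adult replicate 2 held 18 UMIs of *her12* and 3 of *her15.1*, and that of adult replicate 1 held 0 and 173. Epithelial cells showed the same division, with 14 UMIs of *her12* and 0 of *her15.1* in adult replicate 2 and 0 and 35 in adult replicate 1. The *her12* UMIs of adult replicate 2 came from 4 of 52 cells of the radial glia gate and 4 of 42 epithelial cells. In juvenile radial glia *her15.1* exceeded *her12*, with 712 against 43 and 1468 against 190 UMIs.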
